A study of Mus musculus with 4 samples.

Results

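The 47 genes described here encode the machinery that copies DNA and the regulators that let a cell pass from G1 into S phase. They were chosen by symbol from textbook function, with earlier results of these data known. All 47 were found among the 24411 gene symbols counted in each library. The cells were of the mouse microglial line BV2 and are labelled PU.1 knockout, made by CRISPR-Cas9. PU.1 is a transcription factor of myeloid cells, encoded by Spi1. Of the 4 libraries, 2 came from knockout cells treated with 10 ng/ml lipopolysaccharide (LPS, a bacterial cell wall component sensed by TLR4) and 2 from the same knockout cells left untreated. All 4 thus share the PU.1 genotype, and no wild-type cells are compared. Titles put the LPS treatment at 4 h and source names at 2 h. The labels do not say whether the line is 1 clone or whether the libraries of a group came from separate cultures. BV2 was immortalised with a retrovirus carrying v-raf and v-myc, so the host gene Myc is not the only source of MYC protein that such cells may hold, and the viral gene was not measured here.

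DNA replication starts at origins bound by the origin recognition complex, onto which CDC6 and CDT1 load the ring of MCM2 to MCM7. CDC45 and the GINS proteins turn this ring into the active helicase, and the polymerases, the clamp PCNA and its loader RFC then copy the strands. Entry into S phase is set by D-type cyclins with CDK4 or CDK6 and by E-type cyclins with CDK2, which phosphorylate RB1 and release the E2F factors that drive transcription of many replication genes. In macrophages, activation by LPS is known to restrain proliferation, and CDKN1A (p21) is one of the inhibitors involved.

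LPS left this group of genes without a common direction. In edgeR's quasi-likelihood test across 9992 genes, 10 of the 47 were higher and 11 lower after LPS at a Benjamini-Hochberg adjusted p below 0.05, and 26 did not pass. That is 44.7% of the members called, against 51.9% of all genes tested, with 26.6% of all genes higher and 25.3% lower. Myc passed the low-count filter through the LPS libraries, so it had to differ. Without it, 9 of 46 were higher and 11 lower. The median log2 fold change was 0.04 over the 47 members and 0.001 over all genes. Changes of 2-fold or more were found for Cdk6 and Myc, both higher (9.47% of all genes tested were called and at least 2-fold higher, and 7.73% at least 2-fold lower). Per library, the levels of 35 members did not overlap between the groups, a share of 74.5%, and the same was true of 75.1% of all genes tested.

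Within that mixture, and leaving Myc aside, 9 members held their call under all 14 alternative settings. Mcm6, Mcm10, Orc6 and Cdk6 were higher after LPS in each, and Mcm4, Pold1, Pole, Rfc2 and Ccnd3 were lower in each. The other 11 calls were lost under at least 1 setting. How large a share of all called genes held in this way was not computed, so the 9 have no background beside them. Scaling by library size alone moved the median log2 value of all genes to -0.36 and turned the split of members into 5 higher and 23 lower, with 17 members below 0 that were above it before. With offsets corrected for GC content, the split was 12 higher and 7 lower, with upper quartile factors 8 and 15, and with DESeq2 7 and 6. The members that were higher had a median transcript GC content of 45.7%, those that were lower 51.7% and those not called 49.4%. Across all genes, the 2413 genes of 29.6% to 44.6% GC had a median log2 fold change of 0.24 and the 2412 genes of 54.1% to 72.5% GC one of -0.29. Directions below are relative to the median gene, with TMM scaling (edgeR's trimmed mean of M-values, which assumes that most genes did not change).

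**Figure D1:**
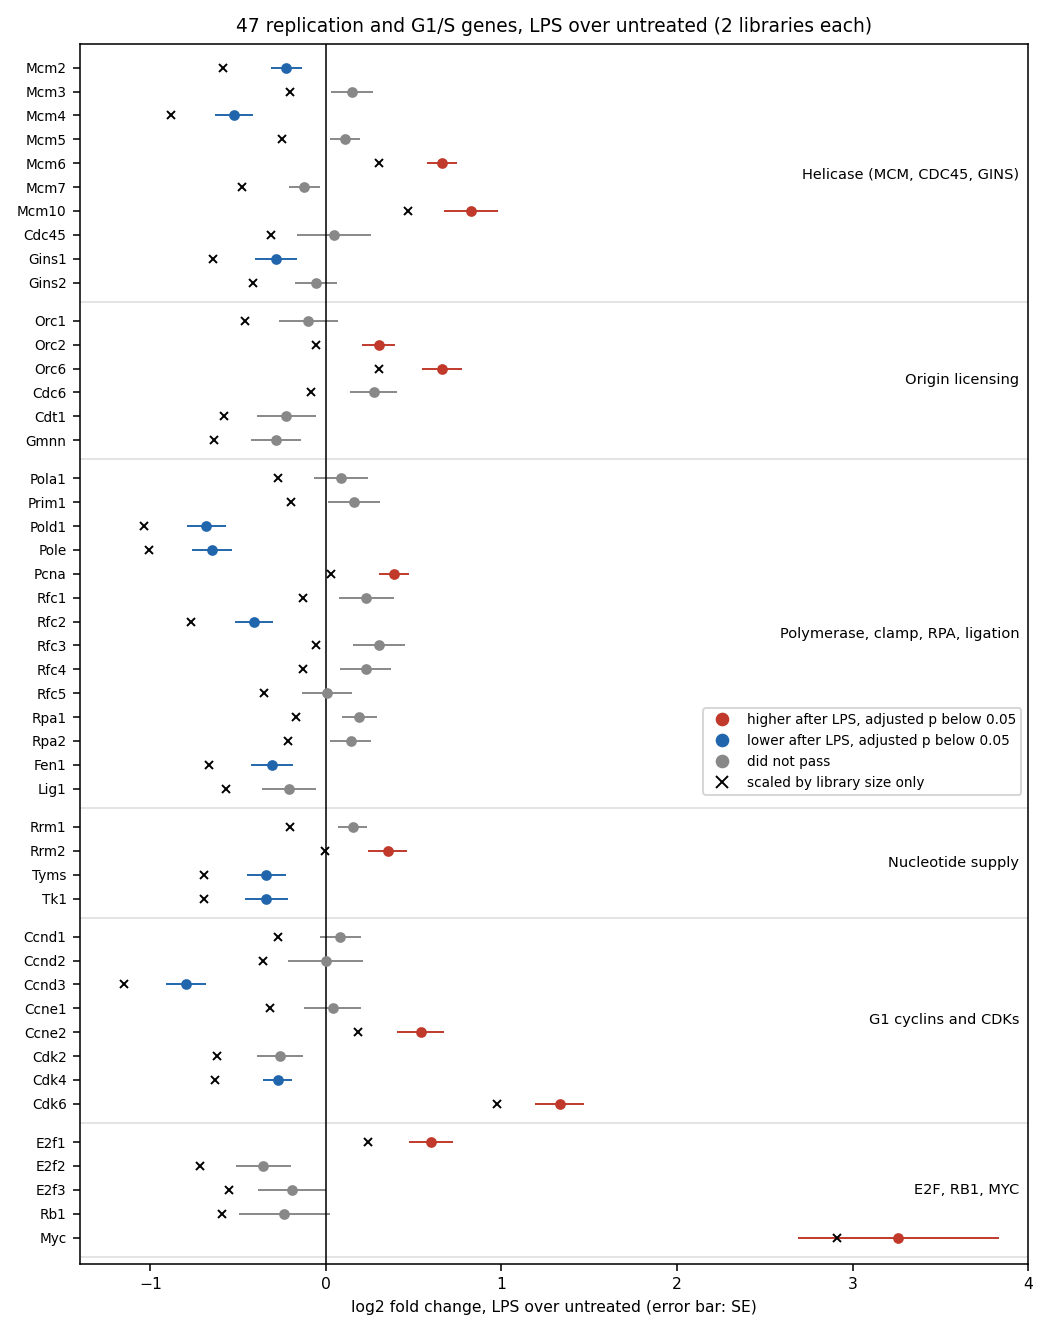
Log2 fold change, LPS over untreated, for each of the 47 genes in 6 role groups (points, with standard error bars, from 2 libraries per group). Red and blue points passed the test, and crosses give the value with scaling by library size alone, which lies to the left of each point. The members spread to both sides of 0 in every role group, and Myc (3.26) and Cdk6 (1.33) lie farthest to the right.

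Total gene counts were 3256197 and 3749159 in the LPS libraries and 4502105 and 4115011 in the untreated ones. Rn45s, a ribosomal RNA entry, held 20.9% and 20% of these counts after LPS and 14.6% and 19% untreated. The TMM factors were 0.888 and 0.88 for LPS and 1.16 and 1.1 for untreated libraries. The share of uniquely placed reads that matched no gene feature on the strand used was 57.4% to 59.1% in LPS and 51.8% to 53.0% in untreated libraries. Where these reads lay was not examined, so they need not lie outside genes, and their part in the results was not tested. Spi1 transcript was present in all 4 libraries (745 and 958 reads after LPS, 844 and 743 untreated) and was higher after LPS (275 ± 23.1 against 163 ± 2.06 CPM, log2 fold change 0.76, adjusted p = 8.77e-10). It does not check the edit, since a small deletion can leave a transcript. All 8 macrophage markers tested were detected, Aif1 at only 6 to 12 reads a library. Of 16 markers of other cell types, 14 had at most 3 reads over the 4 libraries. Of the endothelial markers Kdr and Vwf, which had more, Kdr was higher after LPS (87 and 88 reads against 78 and 64 untreated) and Vwf did not pass. The 16 markers summed to 50.6 and 35.2 CPM after LPS and 22.9 and 23.2 CPM untreated, with Col1a1, Rbfox3, Snap25, Mbp, Mog, Cd3e, Epcam, Krt8 and Pecam1 at 0, and their part in the results was not tested. In these bulk libraries, fewer cells in S phase and less RNA per cell cannot be told apart.

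Promoter windows of 300 bases (250 before and 50 after the annotated start) were available from RefSeq, build GRCm38.p6, for 36 of the 47 members. They were searched on both strands for 4 forms of the E2F motif (TTTCGCGC, TTTGGCGC, TTTCCCGC and TTTGCCGC) and for the E-box CACGTG, which MYC binds with its partner MAX. The E2F letters were found in 14 of the 36 members (38.9%), against 2.26% of all 32851 windows and 5.19% of the 7703 tested genes with a window. CACGTG was found in 8 of 36 (22.2%), against 7.15% of all windows and 12.5% of tested genes with a window. The windows below were picked after the calls were seen, and their matches differ in number and position, so they are not matched pairs. Mcm6 was higher after LPS and Mcm5 did not pass, and both hold an overlapping pair of E2F matches. Pold1 was lower with 1 E2F match past its start, and Cdk6 and Cdk4, with CACGTG only, moved in opposite directions. Capitals mark the matches, on either strand. Bases just after the RefSeq start were found in a GENCODE transcript of the gene in 37 of the 44 windows of members, but not in the windows shown for Mcm6, Mcm5 and Pold1, so positions in these 3 rest on the RefSeq start alone.
Mcm6, chr1:128359656-128359955, minus strand: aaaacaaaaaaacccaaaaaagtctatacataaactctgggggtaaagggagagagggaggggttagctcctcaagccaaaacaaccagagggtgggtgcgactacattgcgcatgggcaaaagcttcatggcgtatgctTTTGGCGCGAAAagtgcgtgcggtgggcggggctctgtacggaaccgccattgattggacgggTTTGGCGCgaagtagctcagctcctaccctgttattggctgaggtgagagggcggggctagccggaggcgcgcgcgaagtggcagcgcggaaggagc
Mcm5, chr8:75109259-75109558, plus strand: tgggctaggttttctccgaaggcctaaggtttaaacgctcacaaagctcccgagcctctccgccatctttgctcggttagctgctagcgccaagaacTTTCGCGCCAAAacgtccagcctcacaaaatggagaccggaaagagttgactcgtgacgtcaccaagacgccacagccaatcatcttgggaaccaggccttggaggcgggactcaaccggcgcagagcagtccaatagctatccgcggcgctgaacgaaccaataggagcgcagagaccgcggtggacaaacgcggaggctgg
Pold1, chr7:44548766-44549065, minus strand: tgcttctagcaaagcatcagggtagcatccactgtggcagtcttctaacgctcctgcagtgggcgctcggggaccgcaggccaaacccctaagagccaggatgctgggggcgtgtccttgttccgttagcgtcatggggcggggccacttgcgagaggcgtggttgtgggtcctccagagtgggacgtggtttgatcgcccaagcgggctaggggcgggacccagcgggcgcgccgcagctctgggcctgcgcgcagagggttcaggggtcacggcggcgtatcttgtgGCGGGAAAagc
Cdk6, chr5:3343643-3343942, plus strand: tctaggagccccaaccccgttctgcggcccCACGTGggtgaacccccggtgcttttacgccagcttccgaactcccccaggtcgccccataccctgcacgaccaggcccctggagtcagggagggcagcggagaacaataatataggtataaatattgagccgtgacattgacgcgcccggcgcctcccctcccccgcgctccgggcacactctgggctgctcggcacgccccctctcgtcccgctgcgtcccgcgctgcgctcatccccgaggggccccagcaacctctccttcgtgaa
Cdk4, chr10:127063285-127063584, plus strand: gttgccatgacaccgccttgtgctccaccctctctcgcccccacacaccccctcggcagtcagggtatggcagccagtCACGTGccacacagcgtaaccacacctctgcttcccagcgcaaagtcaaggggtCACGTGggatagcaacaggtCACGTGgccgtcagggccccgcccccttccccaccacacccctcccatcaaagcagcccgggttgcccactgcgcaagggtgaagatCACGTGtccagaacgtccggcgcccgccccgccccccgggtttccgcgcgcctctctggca
In Mcm6 the matches begin at -110, -106 and -47 from the RefSeq start, and in Mcm5 at -153 and -149. The first 2 of Mcm6, and both of Mcm5, overlap as 1 unbroken stretch of capitals. Among members with a window, E2F letters were found in 1 of 8 higher (Mcm6), 1 of 7 lower (Pold1) and 12 of 21 not called. CACGTG was found in 1 of 8 higher, 3 of 7 lower and 4 of 21 not called. These shares by call were not computed over all genes, so they have no background beside them. Cdk4 holds CACGTG 4 times and Cdk6 once. A match is a description of the letters and shows neither binding nor regulation in these cells.

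**Figure D2:**
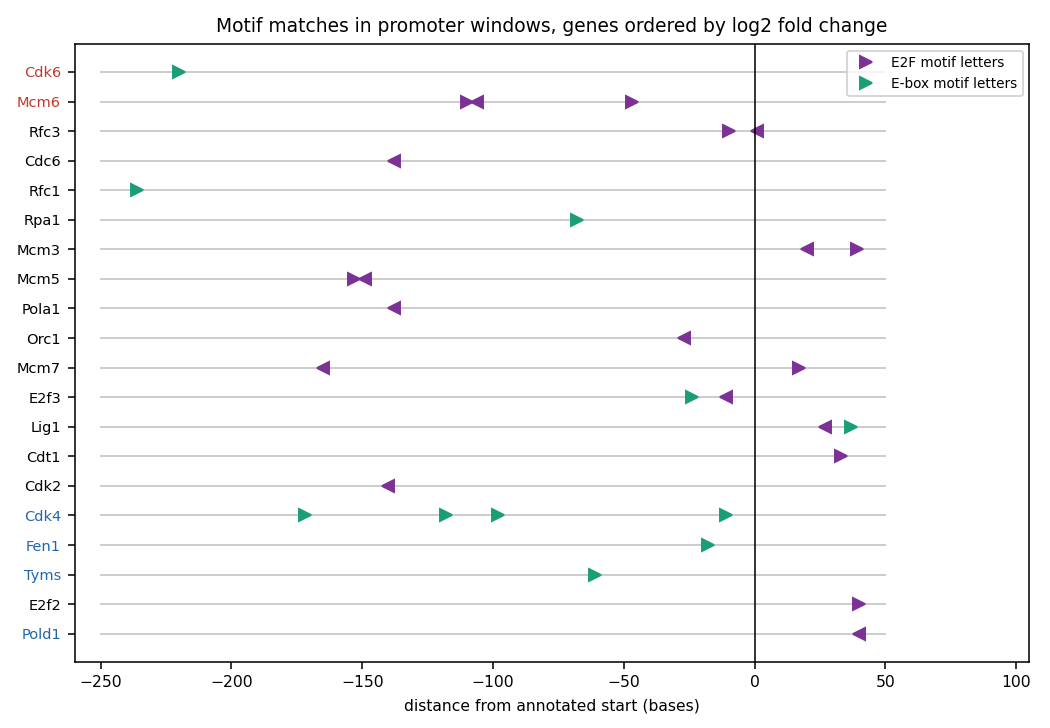
Position of each motif match in the promoter windows, as distance in bases from the start that RefSeq annotates, for the 20 members with a match. Genes run from the highest log2 fold change (Cdk6) to the lowest (Pold1). Arrowheads give the strand, purple marks E2F letters and green CACGTG, and genes with several windows (E2f3 and Lig1 among them) are drawn on 1 line. Matches of both kinds occur in genes that were higher, lower and not called.

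The replicative helicase moved both ways within 1 complex. Mcm6, a subunit of the MCM2 to MCM7 ring, had 1507 and 1504 reads in LPS libraries and 1613 and 1401 in untreated ones, which is 489 ± 46.4 against 309 ± 0.968 CPM (reads scaled to sequencing depth by TMM; SD, n = 2 each). Both LPS libraries lay above both untreated ones, and the log2 fold change was 0.66 (SE 0.09, adjusted p = 5.49e-09). Mcm4, its neighbour in the ring, had 255 and 241 reads after LPS and 605 and 524 untreated, or 80.8 ± 10.8 against 116 ± 0.131 CPM. Both LPS libraries lay below, at a log2 fold change of -0.52 (SE 0.11, adjusted p = 7.24e-05). The count ratio of Mcm6 to Mcm4 within a library, which no scaling can alter, was 5.91 and 6.24 after LPS and 2.67 in each untreated library. This ratio and the other count ratios given below were picked after the values were seen. Each shows only that the balance of its transcripts differed between the groups, not that both changed, and none was corrected for GC content.

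Mcm2 was also lower, with 778 and 1047 reads after LPS and 1824 and 1536 untreated (294 ± 34.1 against 344 ± 6.45 CPM). Its log2 fold change was -0.23 (adjusted p = 0.0274), and the call was lost with DESeq2, after GC correction and without any 1 of LPS replicate 1, untreated replicate 1 and untreated replicate 2. Without LPS replicate 2 it was -0.35. Mcm3, Mcm5 and Mcm7 did not pass, with log2 fold changes of 0.15, 0.11 and -0.12. Mcm5 passed as lower with scaling by library size alone and as higher after GC correction. Summed over the 6 ring subunits, the level was 1540 and 1557 CPM in LPS libraries and 1419 and 1460 CPM in untreated libraries. Set per kilobase of the longest GENCODE transcript, the ring genes fell into a high and a low set. Mcm2, Mcm5, Mcm6 and Mcm7 had mean levels of 75.6 to 115 CPM per kb after LPS and 70.9 to 106 CPM per kb untreated. Mcm3 and Mcm4 had levels of 21.2 and 22.5 CPM per kb after LPS and of 19.2 and 32.2 CPM per kb untreated. These levels per length are approximate, since the sources used here do not name the annotation behind the counts.

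Among the members that activate the ring, Mcm10, which binds the helicase as it fires, was higher. It had 137 and 127 reads after LPS and 120 and 115 untreated, or 43.0 ± 6.31 against 24.2 ± 1.76 CPM. The groups did not overlap, and the log2 fold change was 0.83 (SE 0.15, adjusted p = 9.6e-06). Gins1, a GINS subunit, had 164 and 198 reads after LPS and 377 and 319 untreated (58.5 ± 2.32 against 71.3 ± 1.09 CPM). It was lower (log2 fold change -0.28, adjusted p = 0.043), a call that was lost with DESeq2 and without LPS replicate 1, untreated replicate 1 or untreated replicate 2. Gins2 and Cdc45 overlapped between the groups and did not pass, with log2 fold changes of -0.06 and 0.05.

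Of the 6 origin licensing genes, 2 were higher (33.3%, against 26.6% of all genes tested) and none passed as lower, and the call of Orc6 was the 1 that held under all alternatives. Orc6, the smallest subunit of the origin recognition complex, had 300 and 333 reads after LPS and 364 and 270 untreated, or 103 ± 2.03 against 64.7 ± 7.0 CPM. All LPS values lay above the untreated ones, with a log2 fold change of 0.66 (SE 0.11, adjusted p = 2.68e-06). Orc2, another subunit, had 465 and 513 reads against 684 and 571 untreated (158 ± 3.82 against 129 ± 3.20 CPM), and was higher by a log2 fold change of 0.30 (adjusted p = 0.0065) but at -0.06 with scaling by library size alone. The Orc2 call was also lost with DESeq2, with upper quartile factors, after GC correction and without untreated replicate 1 or untreated replicate 2. Orc1, which like CDC6 belongs to the ATPases of origin loading, had a log2 fold change of -0.10 and did not pass.

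The loaders and their inhibitor did not pass. Cdc6 had 133 and 187 reads after LPS and 221 and 196 untreated (51.4 ± 7.55 against 42.8 ± 0.765 CPM, log2 fold change 0.27, adjusted p = 0.08). Cdt1 had 83 and 84 reads against 139 and 168 untreated, with overlapping CPM (27.1 ± 2.31 and 31.9 ± 7.47, log2 fold change -0.22). Gmnn, which encodes the CDT1 inhibitor geminin, had 96 and 120 reads against 205 and 208 untreated (34.9 ± 2.24 against 42.6 ± 4.81 CPM, log2 fold change -0.28, adjusted p = 0.0939).

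At the fork, the catalytic subunits of both leading and lagging strand polymerases were lower while the clamp was higher. Pold1, the catalytic subunit of polymerase delta, had 188 and 213 reads after LPS and 536 and 478 untreated, or 64.9 ± 0.344 against 104 ± 2.27 CPM. The groups were far apart beside their spread, and the log2 fold change was -0.68 (SE 0.11, adjusted p = 1.24e-06). It came to -0.26 after GC correction (adjusted p = 0.0455), the transcript having 61.0% GC, the highest of all members. Pole, the catalytic subunit of polymerase epsilon, had 196 and 197 reads against 511 and 462 untreated (63.9 ± 5.74 against 99.95 ± 3.15 CPM), and was lower by a similar amount (log2 fold change -0.65, SE 0.11, adjusted p = 4.65e-06). Pola1 and Prim1, the polymerase and primase that start each strand, overlapped between groups and did not pass (0.08 and 0.16 on the log2 scale).

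Pcna, the sliding clamp, had 1293 and 1577 reads after LPS and 1895 and 1564 untreated, or 463 ± 21.7 against 354 ± 11.7 CPM. Both LPS libraries were higher (log2 fold change 0.39, SE 0.08, adjusted p = 0.000108), but the log2 fold change was 0.03 (adjusted p = 0.811) when libraries were scaled by size alone. The count ratio of Pcna to Pold1 within a library was 6.88 and 7.40 after LPS and 3.54 and 3.27 untreated. Of the 5 clamp loader genes, Rfc2 was lower, with 220 and 292 reads against 570 and 499 untreated (82.4 ± 8.77 against 110 ± 0.954 CPM; log2 fold change -0.41, SE 0.11, adjusted p = 0.00149). Rfc1, Rfc3, Rfc4 and Rfc5 did not pass, with log2 fold changes of 0.23, 0.30, 0.23 and 0.007. Rfc2 was thus the 1 member of its complex called (20%, against 51.9% of all genes tested).

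Fen1, the nuclease that trims Okazaki fragments, had 172 and 184 reads after LPS and 384 and 313 untreated (57.7 ± 2.65 against 71.3 ± 2.98 CPM). It was lower by a log2 fold change of -0.31 (adjusted p = 0.0296), and the call was lost with DESeq2, after GC correction and without LPS replicate 2, untreated replicate 1 or untreated replicate 2. Lig1, the ligase that seals the fragments, had a log2 fold change of -0.21, and Rpa1 and Rpa2, which coat single-stranded DNA, had 0.19 and 0.14. None of these 3 passed.

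Of the 4 genes of nucleotide supply, 1 was higher (25%) and 2 lower (50%), against 26.6% and 25.3% of all genes tested. Each of these calls was lost under some alternatives. Rrm2, the regulated subunit of ribonucleotide reductase, had 250 and 313 reads after LPS and 373 and 322 untreated, or 90.8 ± 5.93 against 71.3 ± 0.0852 CPM. It was higher (log2 fold change 0.35, adjusted p = 0.00737), but at -0.007 with scaling by library size alone, and the call was lost with DESeq2, with upper quartile factors and without LPS replicate 2, untreated replicate 1 or untreated replicate 2. Rrm1, the large subunit, had 1195 and 1434 reads against 2060 and 1675 untreated (425 ± 15.0 against 382 ± 16.6 CPM) and did not pass (log2 fold change 0.15, adjusted p = 0.123).

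Tyms, thymidylate synthase, had 224 and 274 reads after LPS and 535 and 458 untreated (80.4 ± 3.93 against 102 ± 0.724 CPM). Tk1, the thymidine kinase of the salvage route, had 166 and 199 reads against 367 and 359 untreated (59.0 ± 2.04 against 74.8 ± 6.51 CPM). Both had a log2 fold change of -0.34 and passed as lower (adjusted p = 0.00774 and 0.0169). Both calls were lost with DESeq2 (adjusted p = 0.0934 and 0.156) and without untreated replicate 2. The Tyms call was lost without untreated replicate 1 too, and the Tk1 call after GC correction. The ratio of Rrm2 to Tk1 reads was 1.51 and 1.57 in LPS libraries and 1.02 and 0.897 in untreated libraries.

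**Figure D3:**
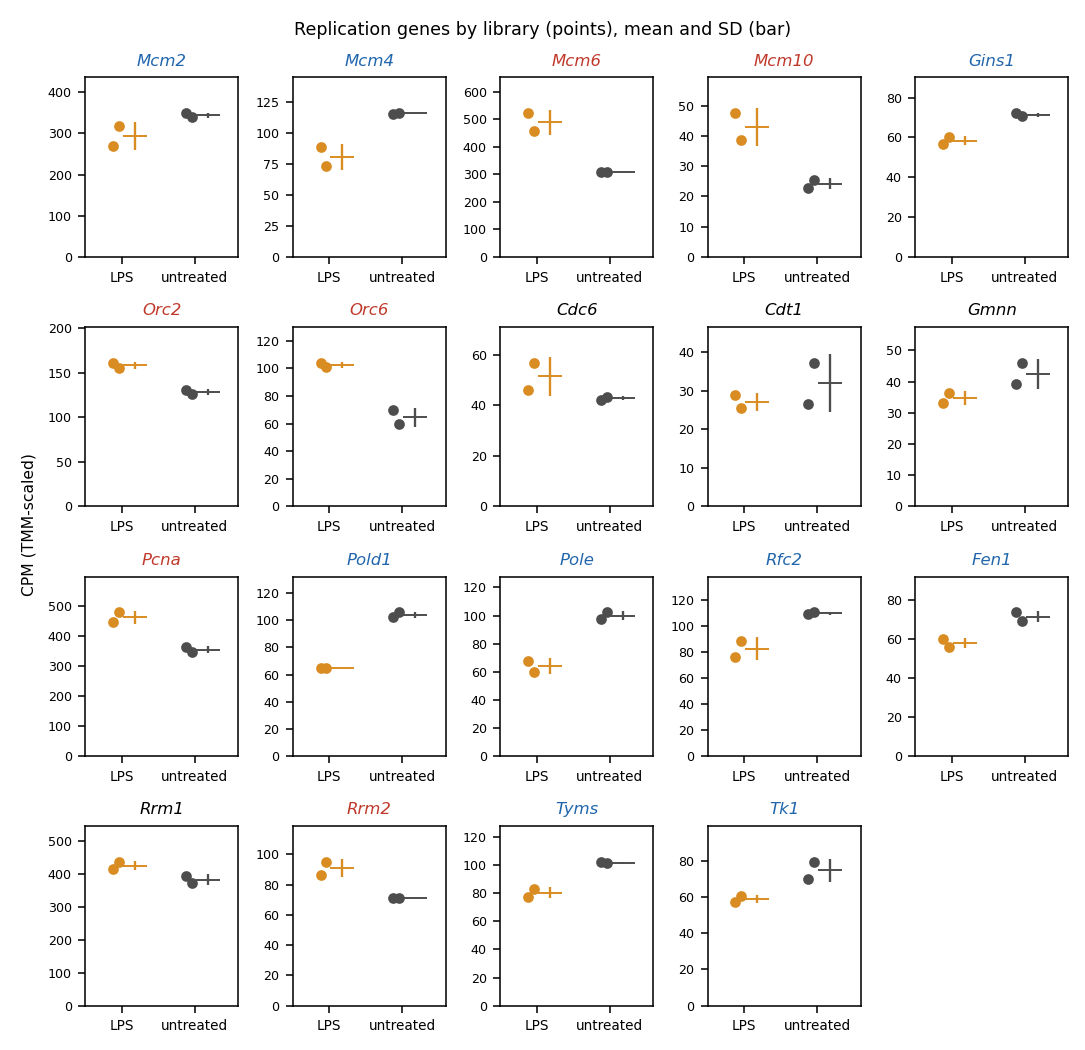
Level of 19 replication genes in each library, in CPM scaled by TMM (y axes from 0), for LPS (left, orange) and untreated (right, grey) cells. Points are libraries and the bar beside them is the mean with SD (n = 2). Red titles passed as higher, blue titles as lower and black titles did not pass. Mcm6, Mcm10 and Orc6 lie clearly higher after LPS, and Pold1, Pole and Rfc2 clearly lower.

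Of the 3 D-type cyclins, which pair with CDK4 and CDK6, 1 was called (33.3%, against 51.9% of all genes tested). Ccnd3 (cyclin D3) had 189 and 208 reads after LPS and 550 and 535 untreated, or 64.3 ± 1.66 against 112 ± 9.29 CPM. Both LPS libraries lay well below, with a log2 fold change of -0.80 (SE 0.11, adjusted p = 5.45e-08). After GC correction it was -0.51 (adjusted p = 0.000101). Ccnd1 (cyclin D1) had 212 and 237 reads against 358 and 311 untreated (72.7 ± 1.07 against 68.6 ± 0.223 CPM; log2 fold change 0.08, adjusted p = 0.573). Ccnd2 (cyclin D2) had 42 and 48 reads against 73 and 69 untreated (14.6 ± 0.0122 against 14.6 ± 0.919 CPM; log2 fold change -0.001, SE 0.21), and neither passed. The count ratio of Ccnd3 to Ccnd1 was 0.892 and 0.878 in LPS libraries, against 1.54 and 1.72 in untreated ones. On the scale of CPM per kb, Ccnd1 had a mean of 19.4 and Ccnd3 16.7 after LPS, against 18.4 and 29.0 untreated, while Ccnd2 stood at 2.30 after LPS and 2.31 untreated.

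Their kinase partners moved in opposite directions. Cdk6 had 186 and 185 reads after LPS and 130 and 103 untreated, or 60.3 ± 5.86 against 23.8 ± 1.47 CPM. It was 2.52-fold higher (log2 fold change 1.33, SE 0.14, adjusted p = 2.42e-11), and scaling by library size alone left a log2 fold change of 0.97. Cdk4 had 943 and 1106 reads against 2062 and 1844 untreated (331 ± 6.35 against 401 ± 9.53 CPM) and was lower (log2 fold change -0.28, SE 0.08, adjusted p = 0.00508). The Cdk4 call was lost after GC correction (-0.10) and without untreated replicate 2. The ratio of Cdk6 to Cdk4 reads within a library was 0.197 and 0.167 after LPS and 0.063 and 0.0559 untreated, so Cdk4 remained the more abundant of both in each library, also per length (162 against 5.23 CPM per kb after LPS and 196 against 2.07 untreated).

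The E-type cyclins differed in their calls, but a difference between both genes was not tested. Ccne2 (cyclin E2) had 147 and 190 reads after LPS and 214 and 152 untreated, or 54.3 ± 4.77 against 37.3 ± 5.17 CPM. It was higher (log2 fold change 0.54, SE 0.13, adjusted p = 0.000705), but the call was lost with scaling by library size alone, with DESeq2 (adjusted p = 0.0503), without untreated replicate 2 and after GC correction. Ccne1 (cyclin E1) had 70 and 104 reads against 147 and 120 untreated (27.9 ± 5.17 against 27.3 ± 1.11 CPM), with overlapping groups and a log2 fold change of 0.04. After GC correction, the log2 fold changes of Ccne2 and Ccne1 were both 0.19, and neither passed. Cdk2, the kinase of both, had 129 and 145 reads against 286 and 233 untreated (44.4 ± 0.484 against 53.1 ± 2.24 CPM) and did not pass (log2 fold change -0.26, adjusted p = 0.0851).

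Of the E2F genes, E2f1, an activator of S phase genes, had 189 and 249 reads after LPS and 236 and 219 untreated, or 70.5 ± 7.14 against 46.8 ± 2.33 CPM. It was higher (log2 fold change 0.60, SE 0.12, adjusted p = 6.73e-05), although the call was lost (0.24, adjusted p = 0.113) when libraries were scaled by size alone. After GC correction its log2 fold change was 0.95 (adjusted p = 3.47e-09). E2f2 had 72 and 95 reads against 196 and 142 untreated (26.9 ± 2.75 against 34.4 ± 4.30 CPM; log2 fold change -0.36, adjusted p = 0.0524). E2f2 did not pass here, and it passed as lower under 8 of the 14 alternatives. E2f3 had 63 and 50 reads against 100 and 104 untreated (18.5 ± 4.70 and 21.1 ± 2.74 CPM; log2 fold change -0.19). Rb1, which encodes the repressor of the E2F activators, had 34 and 24 reads against 55 and 53 untreated (9.53 ± 3.18 and 11.1 ± 0.851 CPM; log2 fold change -0.24). E2f3 and Rb1 overlapped between groups and did not pass. The ratio of E2f1 to E2f2 reads was 2.62 in each LPS library and 1.2 and 1.54 in the untreated ones.

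Myc, the growth-promoting transcription factor, had few reads, 18 and 14 after LPS and 1 and 4 untreated (5.24 ± 1.40 against 0.538 ± 0.490 CPM). Both LPS libraries lay above both untreated ones, and the ratio of summed, scaled reads was 10.1 (95% exact interval 3.91 to 33.2, counting error only). The fitted log2 fold change was 3.26 (SE 0.57), with a range of 2.5 to 4.54 over the alternatives. These values are a description, since the gene entered the test through the LPS libraries alone.

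**Figure D4:**
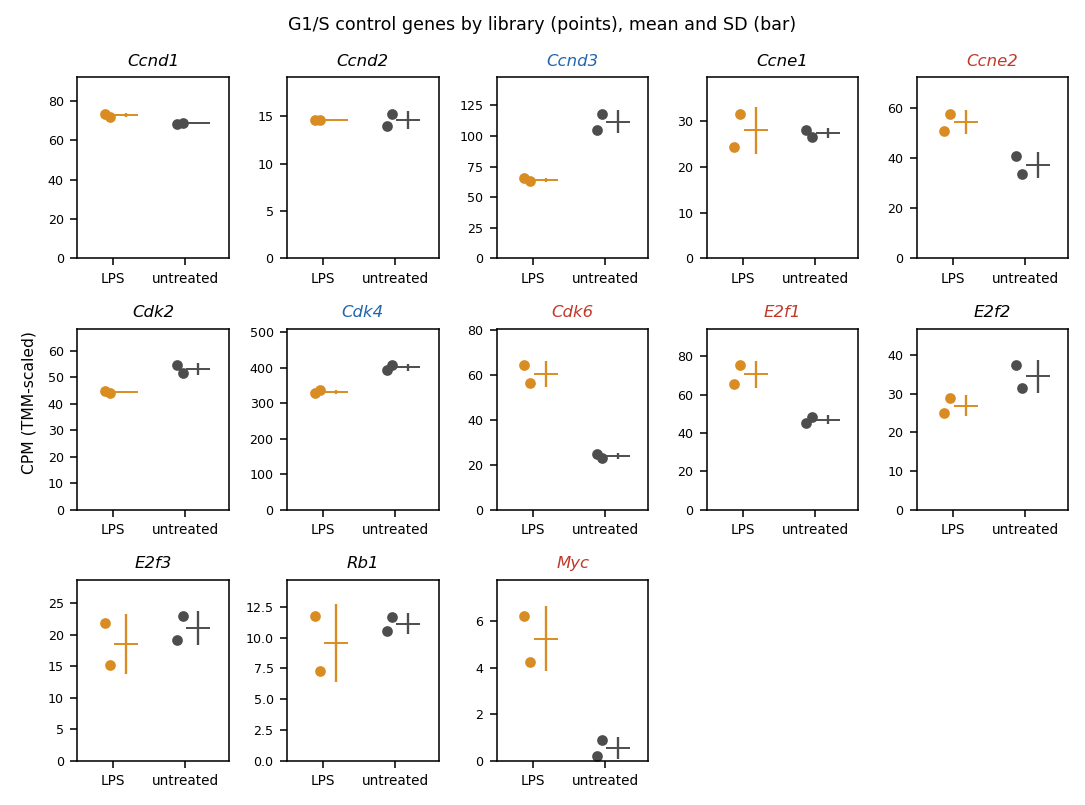
Level of the 13 cyclin, CDK, E2F, RB1 and MYC genes in each library, in CPM scaled by TMM (y axes from 0), for LPS (left, orange) and untreated (right, grey) cells. Points are libraries and the bar beside them is the mean with SD (n = 2). Cdk6, E2f1, Ccne2 and Myc (red) passed as higher, Myc having entered the test through the LPS libraries, and Ccnd3 and Cdk4 (blue) as lower.

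Of 42 further replication genes, 9 were higher (21.4%) and 11 lower (26.2%), shares near those of all genes, and 22 did not pass, with a median log2 fold change of -0.11 against 0.001 over all genes. Among the higher ones were Samhd1, which degrades deoxynucleotides (542 and 589 reads after LPS, 488 and 442 untreated; log2 fold change 0.94, SE 0.10, adjusted p = 9.34e-12), and Pole4, an accessory subunit of polymerase epsilon (197 and 210 against 206 and 163 reads; 0.80). Dck, a salvage kinase, was higher as well (130 and 195 against 162 and 146 reads; 0.73). The lower ones included Recql4, a helicase of replication initiation (66 and 91 reads after LPS, 307 and 259 untreated; log2 fold change -1.19, SE 0.14, adjusted p = 8.89e-10). Cdc7, the kinase that triggers the loaded helicase, was lower too (72 and 77 against 296 and 209 reads; -1.10), as were Dna2, a fork nuclease (101 and 98 against 340 and 284 reads; -0.99), and Dnmt1, the maintenance DNA methyltransferase (358 and 391 against 1022 and 861 reads; -0.67). These 7 calls, picked for small p within the list, held under all 14 alternatives. The share of all called genes that held in this way was not computed.

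Of 31 further regulators of G1/S, 26 could be tested. Of these, 5 were higher (19.2%, against 26.6% of all genes tested) and 11 lower (42.3%, against 25.3%). The median log2 fold change was -0.41, against 0.001 over all genes. Cdkn1a, the CDK inhibitor p21, had 276 and 366 reads after LPS and 54 and 29 untreated and was 12.2-fold higher (log2 fold change 3.60, SE 0.16, adjusted p = 2.74e-23). Mxd1, a MAX partner that competes with MYC, had 136 and 168 reads against 38 and 42 untreated and was 5.96-fold higher, and Max itself had 434 and 463 against 555 and 475 (log2 fold change 0.46). Mxi1, of the same MAX-binding family, was lower (70 and 78 against 333 and 271 reads; -1.37). Rbl1, the RB1 relative p107, was higher (193 and 204 against 270 and 203 reads; 0.41). The Max call was lost with scaling by library size alone, and the Rbl1 call with that scaling, with DESeq2, after GC correction and without untreated replicate 2. Tfdp2, a dimer partner of the E2F proteins, was lower (35 and 31 against 160 and 100 reads; -1.31), as were the repressor E2f6 (176 and 209 against 514 and 453 reads; -0.67) and Ccna2, cyclin A2 (881 and 1081 against 2528 and 2089 reads; -0.58). Both lists together held 14 higher and 22 lower genes, beside 2659 higher and 2527 lower among all 9992 genes tested. Scaling by library size alone made this 6 higher and 39 lower, beside 1379 higher and 4778 lower among all genes. The CDK inhibitor gene Cdkn1c and the genes E2f7, Mycl and Mycn had no reads.

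A list of 30 mitosis genes is the closest neighbour of these genes in the cell cycle. Of it, 2 were higher (6.67%, against 26.6% of all genes tested) and 17 lower (56.7%, against 25.3%), with a median log2 fold change of -0.62. The split was 0 higher and 19 lower after GC correction, and 0 higher and 23 lower with scaling by library size alone. Cdc20, an activator of the anaphase-promoting complex, had 169 and 179 reads after LPS and 823 and 728 untreated. Plk1, a mitotic kinase, had 241 and 299 reads against 1128 and 942 untreated. The log2 fold changes were -1.50 (SE 0.11) and -1.28 (SE 0.10), adjusted p = 1.06e-16 and 8.53e-16. The member list and the mitosis list were not tested against each other.

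**Figure D5:**
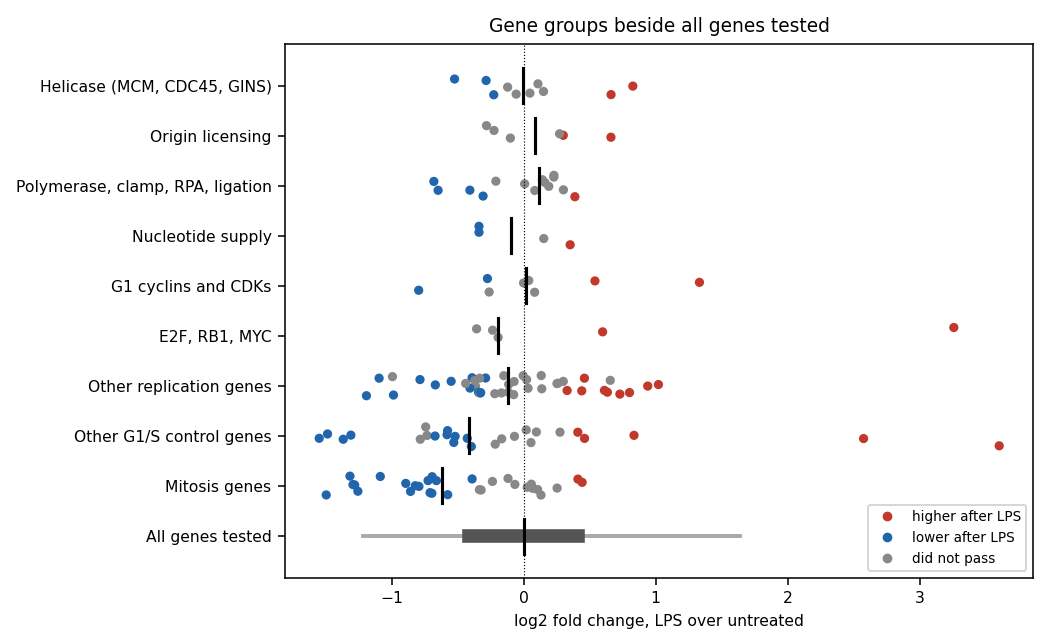
Log2 fold change, LPS over untreated, for the 6 role groups of members, further replication genes, further G1/S control genes and mitosis genes (points are genes, black bars medians, colours as called). The lowest row gives all 9992 genes tested, with the median, the middle 50% (thick) and the 5% to 95% range (thin, -1.22 to 1.64). Group medians run from -0.19 to 0.11 in the role groups and reach -0.62 in mitosis genes.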

How the data were processed

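The libraries were directional, paired-end and depleted of ribosomal RNA, per the labels' protocols. STAR 2.5.1, Trimmomatic 0.33, CASAVA 1.8.2 and DESeq2 are listed in the submitters' processing notes, with hg19, a human build, although organism and symbols are mouse. The extraction text also names human stem cells. An annotation is not named there. The authors deposited raw read counts per gene, neither normalised nor pooled, in 3 columns by strand. The reverse-strand column was used (78.7 to 95.3 times the forward total), without the 4 summary lines, which hold unmapped, multimapping and unassigned reads.

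Counts were tested with edgeR 4.0.16 in R 4.3.3 (filterByExpr, TMM, robust quasi-likelihood, two-sided, treatment only), with Benjamini-Hochberg adjustment over 9992 genes. CPM are relative to TMM-scaled library sizes. The SE, an approximation, is the absolute log2 fold change over the square root of F. DESeq2 1.42.0 was an alternative. The libraries of a group differed beyond sampling noise (2.44 for LPS and 1.52 for untreated, as chi-square over its degrees of freedom) and count as 2 samples. P-values measure only the spread between these libraries, which may be technical. An exact permutation test of 2 against 2 cannot go below 0.333, so none was run. Promoter windows come from RefSeq (GRCm38.p6). Transcript lengths and GC come from GENCODE vM21 by symbol, matched for 96.6% of tested genes and all 47 members.

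The members, lists and alternatives were chosen with earlier results of these data known. Named genes are the 5 members with the smallest p in each role group of replication genes (all 4 for nucleotide supply), all G1/S members, up to 4 called genes per direction of the 2 other lists, and 2 mitosis genes. Other members are named for their fold change only, and genes without reads were named after their values were seen. The values of 1 further gene that this rule selects are not reported here.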

Additional observations from a re-analysis of the deposited data

How the results depend on the processing

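Counts of calls held within 1.5 times of their value under RLE factors, both other filters, unstranded counts and without 5 abundant entries. These entries were Rn45s, Lars2, Mir6236, Rmrp and Rpph1. With scaling by library size alone, all genes split into 1379 higher and 4778 lower, the members into 5 and 23, the other pathway genes into 6 and 39, and mitosis genes into 0 and 23. With DESeq2 there were 1766 and 1410 for all genes, 7 and 6 members, 7 and 14 other pathway genes, and 0 and 16 mitosis genes. GC correction left 7 members lower and 0 mitosis genes higher, and upper quartile factors 1 mitosis gene higher. Leaving out each library in turn gave 2114 to 2547 genes higher and 1949 to 2370 lower, 7 to 12 members higher and 6 to 11 lower, 9 to 16 other pathway genes higher and 17 to 22 lower, and 0 to 2 mitosis genes higher and 16 to 19 lower. The lowest member counts, 7 and 6, came without untreated replicate 2, and 7 members were lower without untreated replicate 1. With 1 library in a group, it is assumed to vary like the other group. With scaling by library size alone, the log2 fold change of 17 members changed sign, among them 4 that had passed before or passed then, Mcm5 (-0.25), Orc2 (-0.057), Rfc5 (-0.35) and Rrm2 (-0.007). A fit with the replicate numbers as a block called 10 members higher and 11 lower, all genes 2658 and 2513, other pathway genes 14 and 22 and mitosis genes 2 and 17. Same-numbered libraries did not deviate together (r = -0.044 across genes). This correlation cannot tell whether same-numbered libraries were prepared together. Causes of these changes were not tested. Members with few reads (Myc, Rb1) are limited by depth.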
